A study of Mus musculus with 9 samples.

Results

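*Rax*, *Six3*, *Six6*, *Tbx2*, *Tbx3*, *Tbx5*, *Vax2*, *Aldh1a1* and *Aldh1a3* are genes that specify the eye field and the dorsoventral axis of the retina. These 9 genes were chosen by name, though with earlier results of these data known, from the 25239 genes listed for every library. Of the 9 genes, 8 averaged at least 1 TPM over the libraries and were tested. TPM counts transcripts of a gene per length, scaled to the same total in every library. The measurements are bulk RNA-Seq of whole retinas of C57BL/6J mice at postnatal day 42, with a pair of retinas in each library. The study asked whether a knock-in at *Rbpms*, which encodes an RNA-binding protein of retinal ganglion cells, alters the retinal transcriptome. The groups were 3 wild type (+/+) mice, 3 heterozygous Rbpms-CreERT2/+ mice (Cre/+) and 3 homozygous Rbpms-CreERT2/CreERT2 mice (Cre/Cre). In the knock-in allele a P2A-CreERT2 cassette is fused in frame to the end of the *Rbpms* coding sequence, so *Rbpms* itself drives the tamoxifen-dependent recombinase. No floxed allele and no tamoxifen treatment are named in the labels of these 9 libraries.

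The eye field is the part of the early neural plate from which both eyes form, and it is defined by transcription factors that include *Rax*, *Six3* and *Six6*. As the optic cup grows, bone morphogenetic protein (BMP) signalling on the dorsal side maintains *Tbx5*, *Tbx2* and *Tbx3*, while *Vax2* marks the ventral side. Retinoic acid is made by *Aldh1a1* in the dorsal retina and by *Aldh1a3* in the ventral retina, and the same axis sets the gradient of cone opsins and the ephrin code read by ganglion cell axons. Whole retinas hold both poles of this axis, so a library gives the total of each gene and not its position. In such bulk samples fewer cells of a type and less RNA per cell cannot be told apart.

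The upstream sequences of *Six3*, *Six6* and *Aldh1a1* are shown because these 3 of the 9 genes matched a RefSeq upstream sequence. They are the 250 bases before the annotated start of each gene in RefSeq on GRCm38.p6, read 5′ to 3′ on the gene's own strand. In *Six3* and *Six6* the capitals mark CpG dinucleotides, and in *Aldh1a1* they mark the complement of a T-box motif.
Six3, chr17:85620584-85620833 (+): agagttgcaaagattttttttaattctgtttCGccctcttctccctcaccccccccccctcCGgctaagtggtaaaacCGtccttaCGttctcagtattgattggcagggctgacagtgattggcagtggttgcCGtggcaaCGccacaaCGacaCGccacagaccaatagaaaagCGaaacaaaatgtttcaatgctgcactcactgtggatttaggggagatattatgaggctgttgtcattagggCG
Six6, chr12:72939632-72939881 (+): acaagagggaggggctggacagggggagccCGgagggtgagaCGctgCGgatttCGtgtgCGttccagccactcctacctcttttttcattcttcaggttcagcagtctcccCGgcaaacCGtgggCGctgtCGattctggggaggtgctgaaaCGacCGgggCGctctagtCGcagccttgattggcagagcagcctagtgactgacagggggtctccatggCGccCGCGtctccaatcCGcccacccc
Aldh1a1, chr19:20492333-20492582 (+): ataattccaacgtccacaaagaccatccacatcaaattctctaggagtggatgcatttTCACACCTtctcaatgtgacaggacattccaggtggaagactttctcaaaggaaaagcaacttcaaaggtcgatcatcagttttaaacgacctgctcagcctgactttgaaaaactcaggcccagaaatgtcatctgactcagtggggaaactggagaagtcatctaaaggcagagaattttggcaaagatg
The *Six6* sequence held 17 CpGs at 62.8% GC and that of *Six3* 10 CpGs at 48.8% GC, both above the median of 6 CpGs over 32851 windows of equal length. The GC content of the *Six3* window lay under the median of 52.4%. The *Aldh1a1* window held 3 CpGs at 42.8% GC. It also held the T-box motif AGGTGTGA on the minus strand, from position -192 counted from the start site, and 1.12% of all windows held that motif on either strand. The homeodomain motifs TAATTA and TAATCC, and the motif TGATAC of the sine oculis family, searched on both strands, were in none of the 3 windows and in 4.84%, 6.25% and 4.64% of all windows. A second RefSeq start of *Aldh1a1*, with the window chr19:20601718-20601967, held none of the 4 motifs.

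Libraries held 27.0 to 31.0 × 10⁶ aligned reads of 150 bases, as computed from coverage and FPKM. *Rbpms* read 38.4 to 43.4 TPM in +/+, 31.3 to 33.1 in Cre/+ and 19.1 to 24.2 in Cre/Cre, with no overlap. It thus fell with the number of knock-in alleles in the labels. The paper, which also applied a fold cutoff, reports no significant change of *Rbpms* and similar protein signal in all genotypes. It describes the fusion as leaving *Rbpms* undisrupted, so a fall was not foreseen and is no independent check of the labels. The cause of the fall was not tested. Müller glia markers summed to 3271 to 3980 TPM with *Glul* the highest and bipolar cell markers to 549 to 712 with *Trpm1* the highest, whereas fibroblast and scleral markers summed to 4.14 to 10.2, with *Lum* under 1 in every library. The 5 ganglion cell markers, with *Nefl* the highest, summed to 984 to 1015 TPM in +/+, 960 to 992 in Cre/+ and 735 to 894 in Cre/Cre, where all 3 libraries lay under all others. Cre/Cre replicate 1 was the lowest, and replicates 2 and 3 read 894 and 884. The paper counted cells positive for RBPMS and for POU4F1 and found no significant difference among genotypes. With its fold cutoff it also reports none in selected ganglion cell marker genes. Pigment epithelium markers summed to 16.3 to 75.9 TPM, blood markers to 130 to 431, oligodendrocyte markers to 32.6 to 39.0, and astrocyte and optic disc markers to 38.6 to 60.3. A pair of libraries stood apart, both Cre/Cre. In Cre/Cre replicate 1 the ribosomal RNA gene Rn45s took 9.21% of all TPM against 0.0827% to 0.336% in the others. In Cre/Cre replicate 2 the 7 lens markers summed to 905 TPM against 11.1 to 203 elsewhere. *Xist*, expressed from the inactive X chromosome, read 516 to 585 TPM in 6 libraries and 2.08 to 3.16 in Cre/+ replicate 3 and Cre/Cre replicates 1 and 3, so the libraries with low *Xist* are all knock-in.

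Levels of the 9 genes spanned a wide range, and their order was nearly the same in every library. TPM is scaled per length, so genes were compared on it, but the order depends in part on the measure. By deposited coverage, the mean depth over a gene's bases, *Aldh1a1* read 40.0 to 71.3 and *Tbx2* 58.0 to 92.4. On that measure *Aldh1a1* lay under *Tbx2* in every library, the reverse of most libraries by TPM. By median TPM over 9 libraries the order was *Rax* (168), *Six3* (91.6), *Aldh1a1* (69.6), *Tbx2* (57.7), *Vax2* (53.0), *Six6* (49.6), *Tbx3* (10.1), *Tbx5* (3.13) and *Aldh1a3* (0.536). The ranges of *Rax* and *Six3* did not overlap, nor did those of *Six6* and *Tbx3*, of *Tbx3* and *Tbx5*, or of *Tbx5* and *Aldh1a3*. Between *Six3* and *Six6* in that order each gene overlapped its neighbour. *Six3* still exceeded *Aldh1a1* in 9 of 9 libraries, *Aldh1a1* exceeded *Tbx2* in 8 of 9, *Tbx2* exceeded *Vax2* in 8 of 9 and *Vax2* exceeded *Six6* in 7 of 9. *Rax* lay above 93.5% of all tested genes, *Six6* above 68.1%, *Tbx3* above 29.3% and *Tbx5* above 12.3%. The ventral genes were unequal, with *Vax2* at a median of 53.0 TPM and *Aldh1a3* below 1 in every library.

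**Figure D1:**
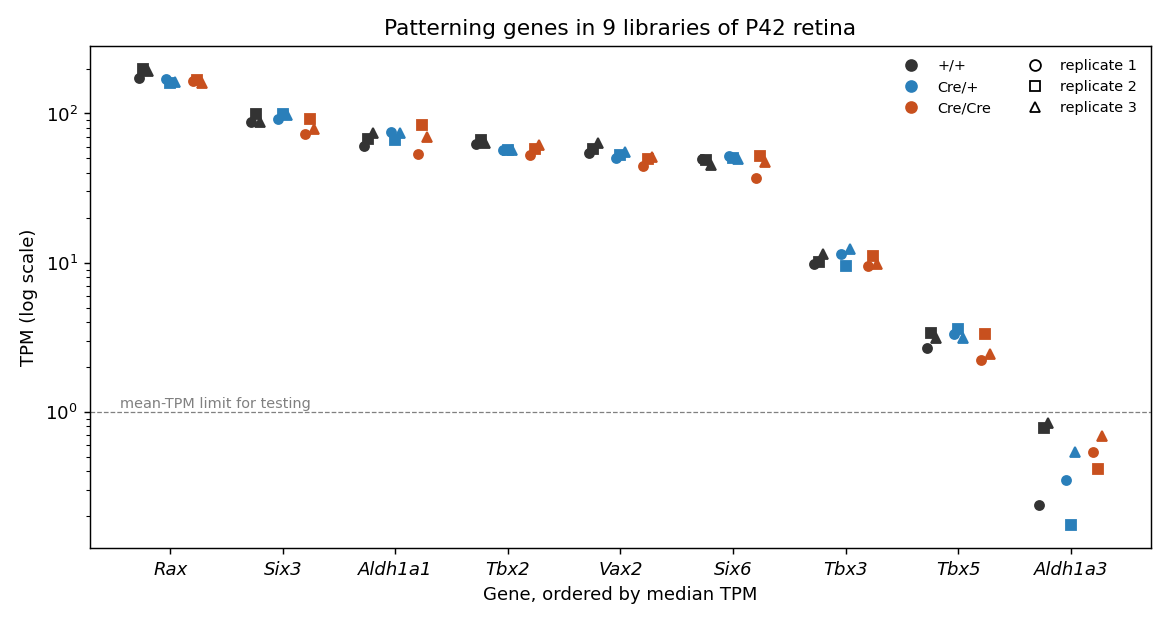
TPM of the 9 patterning genes (log axis) in each of 9 libraries, with 1 point per library, colours for genotype and shapes for replicate number. *Rax* sits highest in every library, *Aldh1a3* lowest, and only *Aldh1a3* lies under the dashed line at 1 TPM.

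*Rax* is the homeobox gene without which no eye forms, and the adult retina expresses it in photoreceptors and Müller glia. By TPM it was lower in all 6 knock-in libraries than in any +/+ library. It read 172, 199 and 191 TPM in +/+ replicates 1 to 3, 171, 160 and 162.5 in Cre/+, and 164.5, 168 and 161 in Cre/Cre. The lowest +/+ and the highest knock-in library, replicate 1 of +/+ and of Cre/+, lay close to each other but did not overlap. The means were 188 ± 13.8, 165 ± 5.54 and 165 ± 3.62 TPM (SD, n = 3), so that Cre/+ held 87.7% and Cre/Cre 87.8% of the +/+ level. On the log2(TPM + 1) scale the change was -0.19 in Cre/+ (SE 0.07, adjusted p = 0.410 by limma) and -0.18 in Cre/Cre (adjusted p = 0.655), neither of which passed the threshold of 0.05. Both comparisons rest on the same 3 +/+ libraries. Between Cre/Cre and Cre/+ the difference was 0.00, with a 95% interval from -0.16 to 0.16. The median over genes of TPM relative to a gene's mean was 0.917 in Cre/Cre replicate 1 and 1.02 in +/+ replicate 1. With each library divided by this median ratio, the change in Cre/Cre was -0.16 (unadjusted p = 0.054, adjusted p = 0.604 by limma). That in Cre/+ was -0.19 (adjusted p = 0.250). The separation of *Rax* in Cre/Cre thus depends on the scaling.

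*Six3*, which represses Wnt signalling in the anterior neural plate and persists in inner retinal neurons, read 87.1, 99.1 and 87.6 TPM in +/+, 91.6, 99.8 and 97.0 in Cre/+, and 73.3, 91.8 and 78.1 in Cre/Cre. The lowest values were those of Cre/Cre replicates 1 and 3, while Cre/Cre replicate 2 lay inside the ranges of the other genotypes. Cre/Cre differed from Cre/+ by -0.25 (95% interval -0.44 to -0.06, adjusted p = 0.739 by limma) and from +/+ by -0.17 (adjusted p = 0.765). *Six6*, its paralogue with a role in the proliferation of retinal progenitors, read 49.8, 49.0 and 44.9 TPM in +/+, 52.0, 50.2 and 49.6 in Cre/+, and 36.9, 51.8 and 47.3 in Cre/Cre. Apart from Cre/Cre replicate 1 its values lay between 44.9 and 52.0 TPM, and its log2 changes of 0.08 in Cre/+ and -0.09 in Cre/Cre did not pass the test (adjusted p = 0.798 and 0.929). The ratio of *Six3* to *Six6* ran from 1.65 to 2.02, a spread of 1.22-fold.

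*Tbx2*, the T-box repressor that in the dorsal optic cup acts downstream of BMP signalling, read 62.9, 66.6 and 63.4 TPM in +/+, 56.8, 57.1 and 56.9 in Cre/+, and 52.9, 57.7 and 61.0 in Cre/Cre. As for *Rax*, every knock-in library lay under every +/+ library. Means were 64.3 ± 2.04, 56.9 ± 0.151 and 57.2 ± 4.07 TPM (SD, n = 3), or 88.5% of +/+ in Cre/+ and 89.0% in Cre/Cre. The log2 change of -0.17 in each knock-in genotype did not pass the test (adjusted p = 0.441 and 0.704 by limma). *Tbx3*, the closest relative of *Tbx2*, read 9.80, 10.1 and 11.5 TPM in +/+, 11.4, 9.56 and 12.3 in Cre/+, and 9.44, 11.0 and 9.74 in Cre/Cre. The 3 ranges overlapped, with log2 changes of 0.07 and -0.05 (adjusted p = 0.863 and 0.980), and no test of *Tbx3* against *Tbx2* was made.

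*Tbx5*, the most dorsally restricted of the T-box genes in the embryonic retina, was still measurable in every adult library. It read 2.66, 3.36 and 3.13 TPM in +/+, 3.33, 3.57 and 3.13 in Cre/+, and 2.24, 3.35 and 2.45 in Cre/Cre. Cre/Cre replicates 1 and 3 gave the lowest values and the genotypes overlapped. From the deposited coverage, its longest annotated transcript of 3942 bases carried about 64.5 to 123 reads per library. The changes of 0.10 in Cre/+ (95% interval -0.27 to 0.48) and -0.15 in Cre/Cre (-0.52 to 0.23) did not pass the test (adjusted p = 0.860 and 0.934 by limma).

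*Vax2*, the ventral homeobox gene that opposes *Tbx5*, had the smallest p of the 8 tested genes. It read 54.1, 57.5 and 63.7 TPM in +/+, 50.3, 53.0 and 55.5 in Cre/+, and 44.5, 49.6 and 50.7 in Cre/Cre. All Cre/Cre libraries lay under all +/+ libraries, while Cre/+ overlapped both. Means were 58.4 ± 4.87, 52.9 ± 2.60 and 48.3 ± 3.30 TPM (SD, n = 3), so that Cre/+ held 90.6% and Cre/Cre 82.6% of +/+. The log2 change was -0.27 in Cre/Cre (SE 0.08, 95% interval -0.45 to -0.09), and its adjusted p over 15198 genes was 0.558 by limma. In Cre/+ it was -0.14 (adjusted p = 0.554). An exact two-sided permutation test of the trend over 0, 1 and 2 knock-in alleles, with 1680 arrangements of the 9 libraries, gave p = 0.00595 for *Vax2* and 0.0274 for both *Rax* and *Tbx2*; these are unadjusted values, of 9 genes examined.

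**Figure D2:**
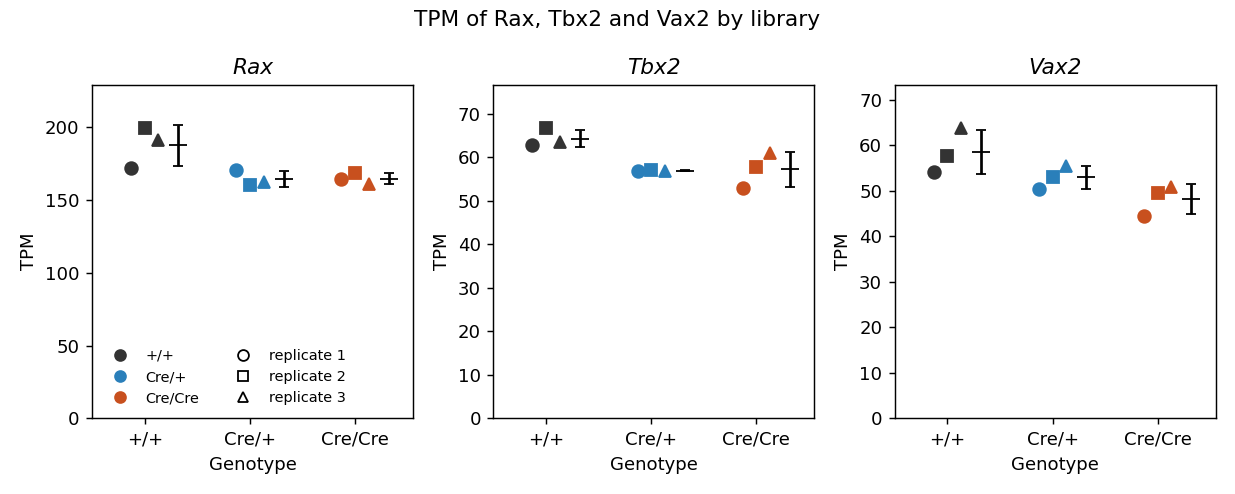
TPM of *Rax*, *Tbx2* and *Vax2* (axes from 0) by genotype, with 1 point per library and the mean ± SD of 3 libraries to the right of each group. The *Rax* means are 188, 165 and 165 TPM in +/+, Cre/+ and Cre/Cre, whereas the *Vax2* means are 58.4, 52.9 and 48.3.

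All +/+ libraries had high *Xist*, so *Xist* and genotype are in part the same split. With *Xist* as a covariate the change of *Vax2* in Cre/Cre was -0.28 (adjusted p = 0.879 by limma) and that of *Rax* in Cre/+ was -0.17 (adjusted p = 0.499). With this covariate 0 of the 8 tested genes had an unadjusted p under 0.05 by limma in Cre/+, beside 2 without it. Over all 15198 tested genes the counts were 1519 and 1628. In Cre/+ *Rax* moved from -0.186 (SE 0.075) to -0.174 (SE 0.083). *Tbx2* moved from -0.172 (SE 0.076) to -0.167 (SE 0.085). Their unadjusted p with the covariate were 0.051 and 0.067 by limma. In Cre/Cre 1 of the 8 had p under 0.05 (*Vax2*), beside 3 without the covariate. Over all tested genes 789 did, beside 1059. By TPM every knock-in library lay under every +/+ library for *Rax* and *Tbx2*, so the libraries with high *Xist* could not show otherwise. The part of *Xist* in these values was not tested. The ganglion cell marker sum was also lower in every Cre/Cre library than in any +/+ library, as were 8.05% of all tested genes. Among these genes were *Rbpms*, *Rax*, *Tbx2*, *Vax2*, *Six3os1*, *Opn1sw*, *Ephb2*, *Sox2* and *Crabp1*. The part of the ganglion cell marker sum in these values was not tested. Without Cre/Cre replicate 1 the change of *Vax2* in Cre/Cre was -0.21 (adjusted p = 0.465) and that of *Rax* -0.18.

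None of the 8 tested genes was called in any comparison by limma at an adjusted p of 0.05, where 0.00658% of all tested genes were called in Cre/+ and in Cre/Cre against +/+ and 0.0132% in Cre/Cre against Cre/+. Those calls were *Hbb-bt*, a globin gene, *Rbpms*, and *Hbb-bt* with *Mir1249*, all named after their values were seen. At an unadjusted p under 0.05, 2 of 8 were lower in Cre/+ (*Rax* and *Tbx2*), against 5.82% of all tested genes, and 0 of 8 were higher, against 4.9%. In Cre/Cre 3 of 8 were lower (*Rax*, *Tbx2* and *Vax2*), against 5.39%, and 0 of 8 were higher, against 1.58%. With TPM divided by the median ratio, 2 of 8 were lower there (*Tbx2* and *Vax2*), against 717 of 15198 genes. Between Cre/Cre and Cre/+ 1 of 8 (*Six3*) was lower in Cre/Cre, against 4.2%, and 0 of 8 were higher, against 2.38%. Counted by ranges that did not overlap, the same 2 genes were lower in Cre/+, against 10.3% of all tested genes, and the same 3 in Cre/Cre, against 8.05%. None was higher without overlap in either, against 11.9% and 2.7%. No gene of the 8 was separated between Cre/Cre and Cre/+, where 7.23% of all tested genes were lower and 4.76% higher. The median log2 change of the 8 was 0.07 in Cre/+ and -0.16 in Cre/Cre, beside 0.00 and -0.02 over all tested genes.

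**Figure D3:**
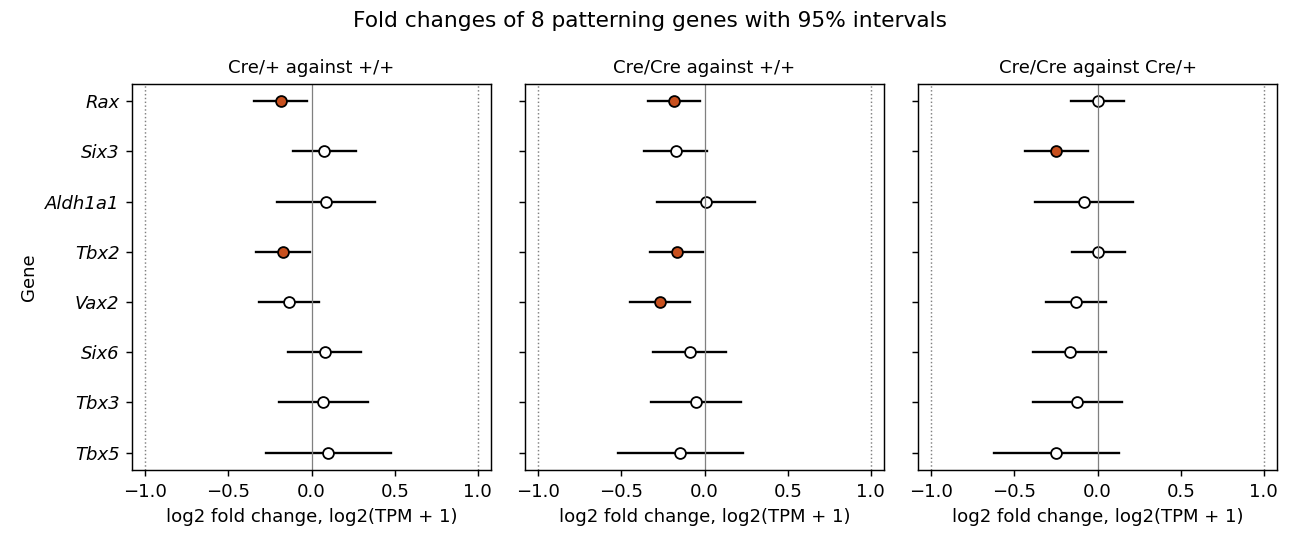
Log2 fold changes of the 8 tested genes on the log2(TPM + 1) scale (points) with 95% intervals (lines) in the 3 comparisons. Filled points have an unadjusted p under 0.05; dotted lines mark a 2-fold change, which lies outside every interval.

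The retinoic acid enzymes differed widely in level. *Aldh1a1*, the dorsal enzyme, read 60.8, 67.9 and 74.1 TPM in +/+, 74.9, 66.9 and 73.6 in Cre/+, and 53.7, 83.3 and 69.6 in Cre/Cre. Both its lowest and its highest value were Cre/Cre libraries, and the other genotypes lay between them. Its change in Cre/Cre was 0.01 (95% interval -0.29 to 0.30, adjusted p = 0.996 by limma) and in Cre/+ 0.09 (adjusted p = 0.838). Within genotypes it varied more than 98.2% of the 500 tested genes nearest to it in level, with a residual SD of 0.20 on the log2 scale. The library highest for *Aldh1a1*, Cre/Cre replicate 2, was the one with the lens marker sum of 905 TPM, and that lowest for it the one with 9.21% Rn45s. Without Cre/Cre replicate 2 the residual SD was 0.16, above 92.8% of the same 500 genes, and *Aldh1a1* ran from 53.7 to 74.9 TPM. Of the 4934 different 50-base windows in its annotated transcripts, 151 (3.06%) also occur in its neighbour *Aldh1a7*, which read 5.64 to 8.86 TPM, so part of the reads could be assigned to either gene.

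*Aldh1a3*, the ventral enzyme, fell below the limit for testing. It read 0.238, 0.777 and 0.839 TPM in +/+, 0.349, 0.173 and 0.536 in Cre/+, and 0.542, 0.413 and 0.688 in Cre/Cre. The genotypes overlapped, and the values within +/+ spanned more than those of either knock-in genotype. Its longest annotated transcript of 3443 bases carried about 4.79 to 24.7 reads per library, and at this depth no difference was detectable. *Aldh1a1* exceeded *Aldh1a3* by 87.3-fold to 386-fold in the 9 libraries. Over those libraries the residual SD of the other tested genes was set beside that of genes of like level. *Six6* lay above 89.0% of the 500 genes nearest to it, *Six3* above 68.6%, *Vax2* above 41.4%, *Tbx3* above 31.8%, *Rax* above 17.4%, *Tbx5* above 16.2% and *Tbx2* above 8.6%.

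Ratios of dorsal to ventral genes within a library do not depend on its scaling. *Tbx5* to *Vax2* ran from 0.0484 to 0.0676, with all genotypes overlapping. *Tbx3* to *Vax2* ran from 0.175 to 0.181 in +/+, from 0.180 to 0.226 in Cre/+ and from 0.192 to 0.223 in Cre/Cre. *Tbx2* to *Vax2* ran from 0.995 to 1.162 in +/+, from 1.02 to 1.13 in Cre/+ and from 1.164 to 1.20 in Cre/Cre. In the latter pair of ratios the Cre/Cre libraries lay above the +/+ libraries and Cre/+ overlapped with +/+, and all these ratios share *Vax2* as the denominator. *Aldh1a1* to *Vax2* was 1.12, 1.18 and 1.16 in +/+, 1.49, 1.26 and 1.33 in Cre/+, and 1.21, 1.68 and 1.37 in Cre/Cre. All 6 knock-in libraries lay above the 3 +/+ libraries, which are the same in both comparisons; 3 libraries against 3 cannot give an exact p under 0.1, and this ratio was singled out after its values were seen.

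*Opn1sw*, the short-wavelength opsin of ventral cones, read 598 to 641 TPM in +/+, 559 to 624 in Cre/+ and 503 to 592 in Cre/Cre. *Opn1mw*, the middle-wavelength opsin of dorsal cones, read 329 to 337, 315 to 334 and 310 to 334 TPM. The Cre/Cre values of *Opn1sw* all lay under those of +/+, with a log2 change of -0.18 (adjusted p = 0.679 by limma), and *Opn1mw* overlapped in all genotypes (-0.05, adjusted p = 0.938). *Opn1mw* to *Opn1sw* ran from 0.505 to 0.627 with overlapping genotypes.

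**Figure D4:**
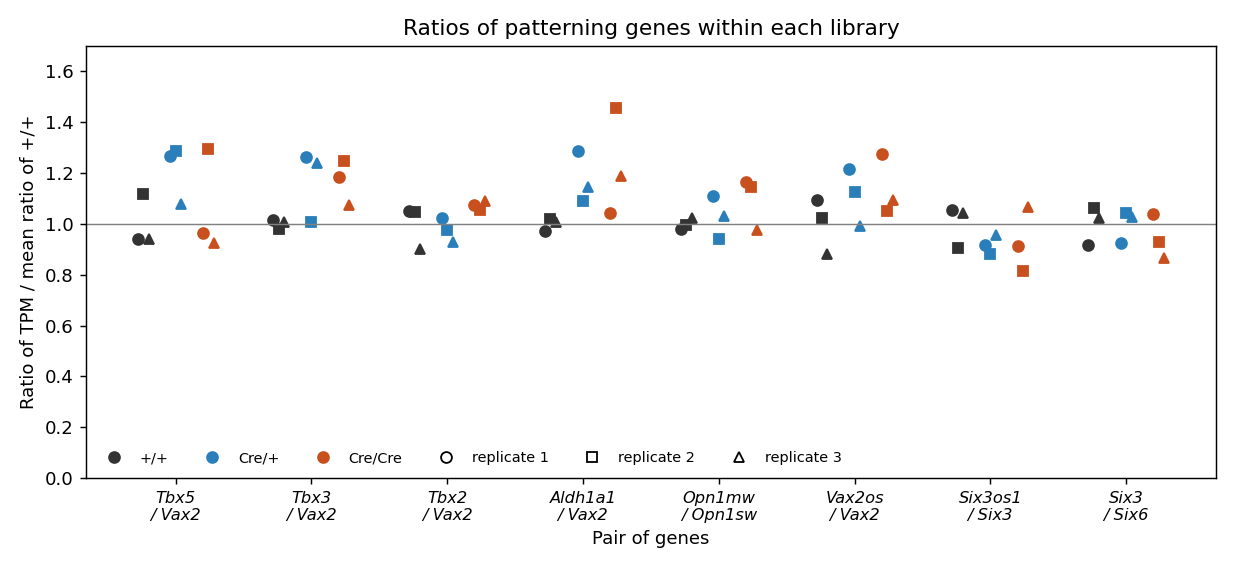
Ratio of the TPM of 2 genes in each library, divided by the mean ratio of the 3 +/+ libraries (axis from 0), with 1 point per library. For *Aldh1a1* to *Vax2* the +/+ libraries lie at 1.12 to 1.18 before division and the knock-in libraries at 1.21 to 1.68; the other 7 pairs overlap between +/+ and at least 1 knock-in genotype.

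Of 8 noncoding neighbours looked for by name, 3 were listed, and they differed in level beside their partner genes. *Vax2os*, transcribed from the strand opposite to *Vax2* on chromosome 6 (mm10, 83692804 to 83712201) and overlapping its interval (83711239 to 83738313) by 963 bases, read 472, 469 and 447 TPM in +/+, 488, 475 and 439 in Cre/+, and 452, 415 and 442 in Cre/Cre. That is 7.02 to 10.2 times *Vax2* by TPM, and its change of -0.09 in Cre/Cre did not pass the test (adjusted p = 0.884 by limma). By deposited coverage the gap was much smaller, at 89.1 to 118.5 for *Vax2os* and 48.8 to 79.8 for *Vax2*. *Six3os1* ends 2437 bases before the start of *Six3* on chromosome 17, on the other strand, and read 94.2, 92.2 and 93.7 TPM in +/+, 86.2, 90.1 and 95.2 in Cre/+, and 68.6, 76.7 and 85.7 in Cre/Cre. All Cre/Cre libraries lay under all +/+ libraries, with a log2 change of -0.28 (SE 0.08, adjusted p = 0.543 by limma). The ratio of *Six3os1* to *Six3* ran from 0.836 to 1.10 by TPM. By coverage *Six3os1*, at 33.6 to 57.7, lay under *Six3*, at 80.4 to 137. The libraries were strand-specific, which keeps such partners apart where the counting used strand. *Tbx3os2* was listed at 0 in all libraries but Cre/+ replicate 1, where it read 0.239 TPM, far under *Tbx3*.

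Genes that act with these 9 were taken as lists, and limma called 0 of them in any comparison. Of all tested genes, 5.82% in Cre/+ and 5.39% in Cre/Cre were lower at an unadjusted p under 0.05. Those higher were 4.9% and 1.58%, and those lower without overlap 10.3% and 8.05%. Genes of the lists were named for the largest change, so that their groups did not overlap is no separate result. Of 18 further eye-field and optic cup transcription factors, 13 were tested, with a median log2 change of 0.05 in Cre/+ and -0.09 in Cre/Cre. Before adjustment 0 of them had p under 0.05 in Cre/+ and 1 did in Cre/Cre, where it was lower. That gene was *Sox2*, a progenitor factor kept in Müller glia and amacrine cells, at 50.8 ± 1.83 TPM in +/+ and 43.3 ± 3.09 in Cre/Cre (SD, n = 3; adjusted p = 0.624). *Six5* had the largest change of the list in Cre/+, at -0.30 (adjusted p = 0.506), from 5.17 to 3.98 TPM.

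Of 17 genes of BMP signalling, BMP targets and other T-box genes, 15 were tested. Median changes of this list were 0.07 (Cre/+) and 0.03 (Cre/Cre). Before adjustment 2 were higher and 1 was lower in Cre/+ with p under 0.05, and 0 differed in Cre/Cre. *Bmp7*, a BMP ligand, read 7.61, 8.19 and 8.30 TPM in +/+ and 6.16, 5.81 and 6.44 in Cre/+, groups that did not overlap (log2 change -0.34, adjusted p = 0.404). *Id1*, a direct BMP target, read 24.2 ± 4.57 TPM in +/+ and 28.1 ± 0.430 in Cre/Cre (SD, n = 3; 0.23, adjusted p = 0.838).

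Of 19 genes of retinoic acid synthesis, breakdown and binding, 17 were tested, with medians of -0.01 and -0.06 and 1 lower gene at an unadjusted p under 0.05 in each knock-in genotype. *Crabp1*, which binds retinoic acid in the cytoplasm, had the largest change of all lists. It read 21.1, 20.0 and 23.5 TPM in +/+, 14.8, 16.6 and 9.69 in Cre/+, and 15.9, 18.4 and 17.5 in Cre/Cre. Every knock-in library lay under every +/+ library, and the change in Cre/+ was -0.64 (SE 0.15, adjusted p = 0.319). *Stra6*, the receptor that takes up retinol, changed by 0.30 in Cre/Cre (adjusted p = 0.798), from 4.07 ± 0.347 to 5.30 ± 1.05 TPM (SD, n = 3).

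Of 20 dorsoventral and nasotemporal guidance genes, 19 were tested, with medians of 0.03 and -0.05, and at an unadjusted p under 0.05 1 was lower in Cre/+ and 2 were lower in Cre/Cre. *Efnb1*, an ephrin-B ligand of the dorsal retina, read 21.3, 18.3 and 20.3 TPM in +/+ and 16.4, 16.8 and 15.6 in Cre/+ (-0.28, adjusted p = 0.404). *Ephb2*, its receptor in the ventral retina, read 14.0, 12.2 and 14.3 TPM in +/+ and 10.4, 9.66 and 12.1 in Cre/Cre (-0.31, adjusted p = 0.655). The groups did not overlap in either case, as for 10.3% of all tested genes lower in Cre/+ and 8.05% lower in Cre/Cre. All 6 genes of the cone list were tested, with medians of -0.01 and -0.07. Before adjustment 1 was higher in Cre/+ (*Thrb*), and in Cre/Cre 1 was higher (*Arr3*) and 1 lower (*Opn1sw*). *Thrb*, the thyroid hormone receptor needed for *Opn1mw*, was 45.3 ± 4.71 TPM in +/+ and 54.2 ± 1.48 in Cre/+ (0.26, adjusted p = 0.384). *Arr3*, cone arrestin, was 648 ± 10.3 TPM in +/+ and 798 ± 54.5 in Cre/Cre (0.30, adjusted p = 0.542).

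Variation between libraries was compared for all 36 pairs of the 9 genes. *Six3* and *Tbx5* were the only pair past the threshold, with Pearson's r = 0.928 (exact permutation p = 0.000438, adjusted p = 0.0158 over the 36 pairs) and a Spearman rank correlation of 0.900 (exact permutation p = 0.00203). Cre/Cre replicates 1 and 3 held the lowest values of both genes and Cre/+ replicate 2 the highest. Without the 2 libraries farthest from the median of *Six3* r was 0.701, after centring each genotype it was 0.890, and with TPM rescaled by the median ratio of all genes it was 0.905. Without Cre/Cre replicate 1 r was 0.868 and the adjusted p 0.142 (exact permutation), and without +/+ replicate 1, Cre/+ replicate 2 or Cre/Cre replicate 3 the adjusted p was 0.0777, 0.0527 and 0.0710 (exact permutation), with r of 0.945, 0.913 and 0.908. The size of r thus stayed near 0.928 with each of these 3 left out, while the adjusted p no longer passed.

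**Figure D5:**
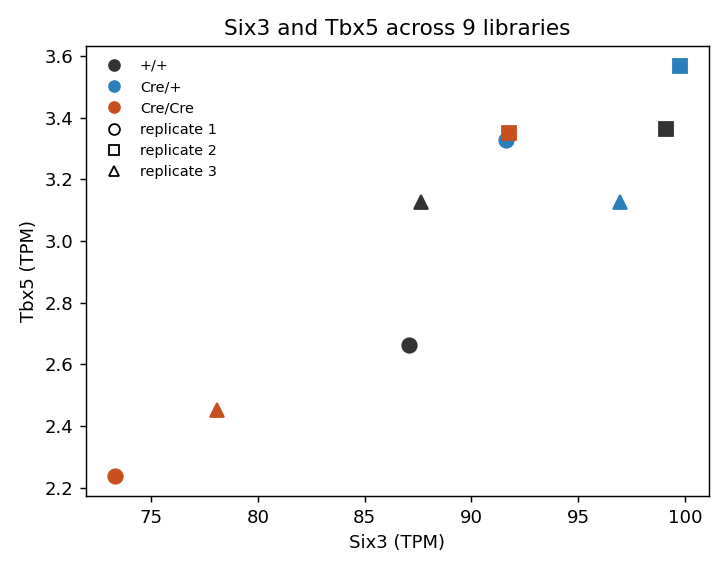
TPM of *Tbx5* against TPM of *Six3*, neither axis from 0, with 1 point per library. Cre/Cre replicates 1 and 3 lie at the lower left (*Six3* 73.3 and 78.1 TPM) and Cre/+ replicate 2 at the upper right (99.8 TPM).

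Pairs of a dorsal gene with the ventral gene *Vax2* gave r of 0.475 for *Tbx5*, 0.752 for *Tbx2*, 0.425 for *Tbx3* and 0.370 for *Aldh1a1*, and none passed the threshold. Without Cre/Cre replicate 1 these were 0.0886, 0.599, 0.230 and -0.19. Without the 2 libraries farthest from the median of the first gene of each pair they were -0.22, 0.622, 0.0264 and -0.54, so the sign for *Tbx5* and *Aldh1a1* rests on few libraries. *Rax* and *Tbx2*, which were both lower in the knock-in libraries, had r = 0.758 (exact permutation p = 0.0134, adjusted p = 0.147) and, after centring each genotype, 0.197. Of the 36 pairs, 32 had r above 0, and 27 after median-ratio scaling. In Cre/Cre replicate 1 all 8 tested genes lay under their genotype mean, as did 78.55% of all tested genes. Their median deviation was -0.12 on the log2 scale, beside -0.10 over all tested genes. In Cre/Cre replicate 2, 0 of 8 did, beside 33.0%, with medians of 0.15 and 0.05. In +/+ replicate 1, 7 of 8 did, beside 43.8%, with medians of -0.09 and 0.02. Elsewhere 2 to 4 of 8 did. Whether RNA composition shared within a library gives these correlations was not tested.

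The tested genes whose pattern over the 9 libraries was most like each gene were listed as a description. For *Six3* they were *Higd1a* (r = 0.967) and *Slc24a3* (0.952), and for *Six6* *Atp6v1e1* (0.984) and *Aggf1* (0.982). For *Rax* they were *Spint2* (0.967) and *Wdr83* (0.965), for *Tbx2* *Parp1* (0.960) and *Klc2* (0.956), for *Tbx3* *R74862* (0.946) and *Shpk* (0.931), and for *Tbx5* *Tob1* (0.966) and *Nutf2* (0.961). For *Vax2* they were *Tbc1d10b* (0.968) and *Ppp1r8* (0.962), for *Aldh1a1* *Tor1aip2* (0.960) and *Tomm34* (0.957), and for *Aldh1a3* *5031425E22Rik* (0.967) and *Cdsn* (0.952). Each is the highest of 15198 values over 9 libraries, and no member of the 9 was among the closest genes of another.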

How the data were processed

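Strand-specific poly(A) libraries were sequenced as paired reads of 150 bases. The authors used Trimmomatic for trimming, HISAT2 for alignment to mm10 and StringTie for gene levels; the tool versions and the annotation are not given in the sources used here. The deposited TPM sum to 1000000 per library. The deposited FPKM are the same values before that scaling, and the deposited coverage is the mean depth over a gene's bases. The tables hold no counts, so the authors' DESeq2 test was not repeated.

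TPM were summed by gene name. Those averaging at least 1 TPM (15198 of 25239 genes) were tested with limma 3.58.1 in R 4.3.3 on log2(TPM + 1), with a trended and robust prior. A single fit held all 9 libraries with genotype as the only term, and p-values were adjusted by Benjamini-Hochberg over all tested genes. Fold changes on this scale understate those of low genes. Correlations and trends used exact permutation tests in Python 3.11.15. Libraries of 1 genotype are separate pairs of retinas. Deviations of same-numbered libraries had r from -0.116 to 0.128, and those of differently numbered ones from -0.194 to 0.261. With 3 libraries per genotype this cannot tell whether equal numbers share a batch, so replicate number was not a term. The scripts were tested on simulated data.

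The 9 genes and all lists were chosen with earlier results of these data known. Named beside the 9 are *Rbpms*, the gene of each list with the largest change in each comparison with +/+, the listed noncoding neighbours, both cone opsins, and the 2 genes most like each member. Alternatives were a pseudocount of 0.1, no filter, median-ratio scaling, FPKM, *Xist* as a covariate, only the genotypes compared, a replicate block, a fold limit of 2 and each library left out. Read numbers per gene are coverage times the longest GENCODE transcript divided by 150, an approximation, and depth of other kinds is unknown. Sequences and start sites come from RefSeq, with chromosome 18 left out. Of the 9 genes, 3 matched a sequence that is shown.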

Additional observations from a re-analysis of the deposited data

How the results depend on the processing

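None of the 8 tested genes was called under any alternative (384 values, smallest adjusted p = 0.183 by limma). The sign held under every alternative for 7 of the 8 in Cre/+ against +/+ and for 4 of the 8 in Cre/Cre against +/+. With *Xist* as a covariate the change of *Tbx5* in Cre/Cre against +/+ was 0.02, where the fit without it gave -0.15, and the cause was not tested. The number of genes called over all genes was small and moved with the settings. In Cre/+ against +/+ (1 call) it was 0 with FPKM, 2 with only the genotypes compared and 1 to 5 with a library left out. In Cre/Cre against +/+ (1 call) it was 3 with a pseudocount of 0.1, 3 with *Xist* as a covariate, 5 with only the genotypes compared, 0 with a fold limit of 2 and 1 to 4 with a library left out. In Cre/Cre against Cre/+ (2 calls) it was 6 with FPKM, 6 with *Xist*, and 1 each without a filter, with median-ratio scaling and with a fold limit of 2, and 1 to 8 with a library left out. With the replicate number as a block it was 1, and the count of correlated pairs was 0; the block changed no call of the 8 genes. Correlated pairs (1) were 2 with FPKM, where *Rax* and *Tbx2* joined, and 0 to 1 with a library left out. With a library left out, its genotype has 2 libraries and shares the spread of the others. Depth per gene is not recorded in TPM, which limits *Aldh1a3* most.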
